A study of Mus musculus with 18 samples.

Results

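The liver decides how much iron enters the blood, and 10 genes of that system were followed through the livers of chow-fed, high-fat-fed and alkaloid-treated mice. The 10 genes, taken by name from a table of 54532 genes, were Hamp, Hamp2, Bmp6, Hfe, Tfr2, Trf, Tfrc, Fth1, Ftl1 and Slc40a1. All 10 were found, and all 10 reached the mean of at least 1 FPKM (fragments on a gene scaled to its length and to the library size) that 10216 genes reached.

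Hepcidin, the peptide made from Hamp, is released by hepatocytes and removes ferroportin, the only known iron exporter (Slc40a1), from the surface of macrophages and gut cells. Less hepcidin therefore means more iron in plasma. Hamp transcription follows the ligand BMP6, made largely by liver sinusoidal endothelial cells, which acts with BMP2 through receptors, the co-receptor hemojuvelin and SMAD proteins. HFE and transferrin receptor 2 report circulating transferrin to the same pathway, and interleukin-6 drives Hamp through STAT3 in inflammation. Inside cells, the iron regulatory proteins bind stem-loops called iron-responsive elements in ferritin, ferroportin and transferrin receptor mRNA and set their translation or stability.

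The mice were male and of the strain labelled C57BL/6 (C57BL/6J in the methods), 6 weeks old at the start, and liver RNA was sequenced from 18 of them, 1 library each. The normal chow group (NC, 6 mice) was kept on standard chow. The HFD group (6 mice) received a high-fat diet for 14 weeks and then saline with the diet continued. The SZ-A group (6 mice) received the same diet and then SZ-A, the alkaloid extract of Ramulus Mori, the twigs of white mulberry, for 6 weeks according to the methods and 8 weeks according to the design text. The sources used here do not tie a dose or a route to the sequenced mice. NC mouse 6 carries a diet label that contradicts its title, and it was kept in NC by its title. The table held between 17163191 and 20493907 fragments on genes per mouse. The hepatocyte markers were the most abundant of the marker lists in every group, and none of the 9 lists was at 0 in all mice.

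The sequences show which of the 10 genes carry the letters read by these pathways. In the 250 bases before the RefSeq start of Hamp (GRCm38.p6, chr7:30944030-30944279, minus strand) the BMP-responsive word GGCGCC began 109 bases before the start, and the STAT-type word TTCNNNGAA began at 97. Hamp2, a second hepcidin gene of the mouse that lies beside Hamp (window chr7:30924182-30924431, minus strand), had the STAT-type word at 94 and no GGCGCC. Both windows are shown because the ratio of Hamp2 to Hamp differed between NC and HFD livers, with the matched words in capitals.
Hamp: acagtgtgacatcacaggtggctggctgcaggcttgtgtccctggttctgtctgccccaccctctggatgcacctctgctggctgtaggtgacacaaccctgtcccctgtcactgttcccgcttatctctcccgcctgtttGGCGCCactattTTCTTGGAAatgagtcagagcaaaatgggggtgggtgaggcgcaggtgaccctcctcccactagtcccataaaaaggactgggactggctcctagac
Hamp2: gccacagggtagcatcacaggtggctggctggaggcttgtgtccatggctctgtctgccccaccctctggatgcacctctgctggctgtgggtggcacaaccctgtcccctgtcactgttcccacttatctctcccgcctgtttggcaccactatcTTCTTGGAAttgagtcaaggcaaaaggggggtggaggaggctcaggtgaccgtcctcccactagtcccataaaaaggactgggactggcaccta
The aligned windows were identical at 227 of 253 positions (89.72%). Both words read the same on either strand. GGCGCC was present in 9.586% of 32851 windows of this length, TTCNNNGAA in 7.02%, and both in 0.3683%. Windows were found for 8 of the 10 genes, and outside the hepcidin genes only 1 window of Tfrc held either word. A match is a run of letters and not a proven site.

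A stem-loop of the iron-responsive type, with an unpaired C, 5 paired bases and a loop of CAGTGN, was found in the annotated mRNA of 4 of the 10 genes, against 174 of 21291 coding transcripts (0.817%, GENCODE vM21, GRCm38). The 29-base sites are shown, loop in capitals, because the iron regulatory proteins act on these mRNAs after transcription. FPKM follows the mRNA level, so it does not show an effect on translation. An effect on mRNA stability would change FPKM and could not be told apart from one on transcription.
Fth1 (5′ UTR, exon 1, chr19:9982732-9982760, plus strand): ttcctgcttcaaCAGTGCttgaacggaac
Ftl1 (5′ UTR, exon 1, chr7:45459779-45459807, minus strand): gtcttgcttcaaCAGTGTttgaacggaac
Slc40a1 (5′ UTR, exon 1, chr1:45925465-45925493, minus strand): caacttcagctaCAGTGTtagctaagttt
Tfrc (3′ UTR, exon 19, chr16:32631219-32631247, plus strand): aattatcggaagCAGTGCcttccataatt
The 3′ UTR of Tfrc held 4 such sites in all, of which the first is printed. The other 6 genes had none in the transcript searched.

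In the livers of HFD mice, Hamp and its ligand gene Bmp6 were lower than in NC and the exporter gene Slc40a1 was higher, while the second hepcidin gene Hamp2 had a higher mean that missed the threshold. With SZ-A added to the diet, none of the 10 genes passed the test against HFD. Against NC, the SZ-A group showed lower Hamp, Bmp6 and Hfe. In HFD against NC, 3 of the 10 genes were called (limma on log2(FPKM + 0.1), adjusted p under 0.05 over all genes tested and a fold over 1.2), beside 20.2% of all genes, of which 10.7% were higher and 9.49% lower. In SZ-A against HFD the count was 0 of 10, beside 0.147% of all genes (15 genes, 0.0783% higher and 0.0685% lower, with 1515 genes at an unadjusted p under 0.05). In that comparison 1 of the 10, Trf, had an unadjusted p under 0.05. In SZ-A against NC it was 3 of 10, beside 9.60% of all genes, with 5.31% higher and 4.30% lower. The 3 comparisons share their groups pairwise, so they are not independent of one another.

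**Figure D1:**
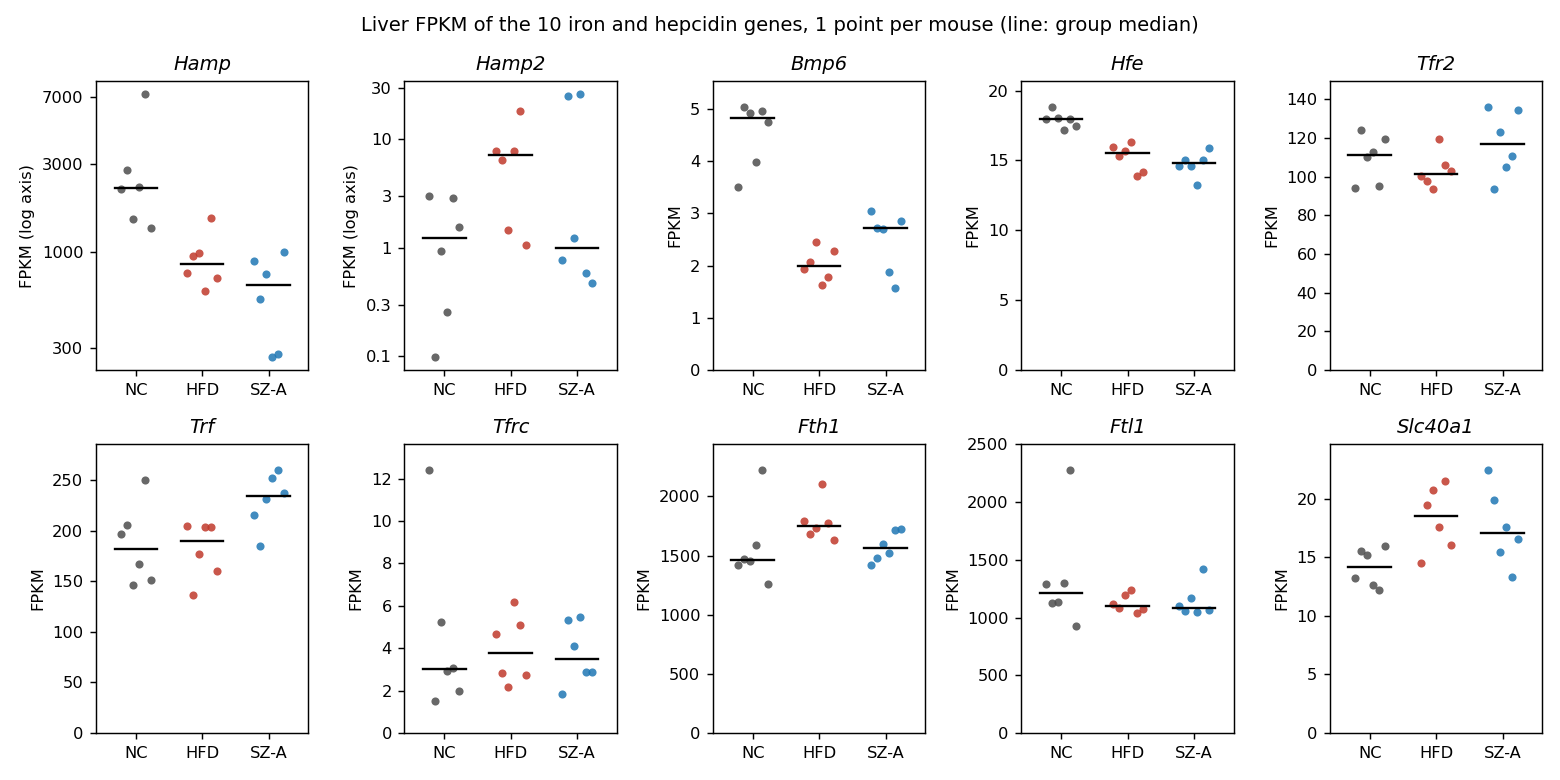
FPKM of the 10 genes in each mouse by group (NC, HFD, SZ-A); points are mice, lines are group medians, and the axes of Hamp and Hamp2 are logarithmic while the others start at 0. All 6 NC mice lie above all HFD mice for Bmp6 and Hfe, and 1 HFD mouse (1520 FPKM) overlaps the NC range for Hamp.

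Hamp (ENSMUSG00000050440, chr7:30942368-30944032, minus strand, GRCm38) was the most abundant of the 10 genes in NC livers, at 2895 ± 2199 FPKM (SD, n = 6). The NC mice ran from 1346 (mouse 6) through a median of 2231 to 7251 FPKM (mouse 5). The HFD mice ran from 614.9 (mouse 4) through 856.0 to 1520 FPKM (mouse 5), and the SZ-A mice from 266.4 (mouse 4) through 657.3 to 992.9 FPKM (mouse 6). In HFD 5 of 6 mice lay below every NC mouse, and in SZ-A all 6 did. The log2 difference was -1.46 in HFD against NC (SE 0.35, limma adjusted p = 0.0112) and -2.14 in SZ-A against NC (SE 0.43, limma adjusted p = 0.00914). The SZ-A mean was 0.673 of the HFD mean, but that difference of -0.69 did not pass (95% interval -1.44 to 0.06, limma adjusted p = 0.378), and 3 SZ-A mice lay inside the HFD range. Among all genes ordered by FPKM, Hamp held places 8 to 39 in NC mice, 32 to 79 in HFD mice and 63 to 200 in SZ-A mice. NC mouse 5 stood high for Hamp, and without it the HFD difference was still called. The 8 hepatocyte markers were also lower in sum, with 42190 to 60360 FPKM (median 45530) in NC mice, 28720 to 47770 (median 34000) in HFD mice and 33670 to 59590 (median 38030) in SZ-A mice. Most of that sum was Alb, which was not called in HFD against NC (-0.47, limma adjusted p = 0.0558). Called lower were 2 of the 8 in HFD against NC, Cps1 (-1.40) and Apoa1 (-0.91), beside 9.49% of all genes. In SZ-A against NC 1 of the 8, Cps1 (-1.09), was called lower, beside 4.30% of all genes. Hnf4a (-0.28), Ttr (0.01), F2 (0.02), Cyp2e1 (0.07) and Asgr1 (0.09) were not called in HFD against NC. The part of the 8 markers in the Hamp differences was not tested.

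The order of the 10 levels differed between the groups. Hamp FPKM exceeded that of the ferritin heavy chain gene Fth1 in 6 of 6 NC mice and in 0 of 6 HFD and 0 of 6 SZ-A mice. It exceeded the light chain gene Ftl1 in 6 of 6 NC, 1 of 6 HFD and 0 of 6 SZ-A mice. At the other end, Slc40a1 lay above Hfe in 0 of 6 NC, 5 of 6 HFD and 5 of 6 SZ-A mice. These counts were chosen after the values were seen and describe levels per length of gene. Trf and Tfr2 held ranks 4 and 5 of the 10 in every group. Neighbours in the order whose means lay closer than the larger of their SDs were Hamp, Fth1 and Ftl1 as well as Tfrc and Bmp6 in NC mice. In HFD mice they were Ftl1 and Hamp as well as Hamp2 and Tfrc, and in SZ-A mice the lower 5 genes, from Slc40a1 through Hfe, Hamp2 and Tfrc to Bmp6.

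Hamp2 (ENSMUSG00000056978, chr7:30922372-30924681, minus strand) was present at a small fraction of Hamp. It rested on 1 to 288 fragments per mouse, and Hamp and Hamp2 are similar enough that a fragment could be counted for the wrong copy. NC mice ran from 0.0984 through a median of 1.24 to 3.02 FPKM, and HFD mice from 1.06 through 7.11 to 18.2 FPKM. In SZ-A the values split, with mice 2 and 4 at 24.9 and 26.1 FPKM and the other 4 between 0.473 and 1.22 FPKM. The mean was 4.92 times higher in HFD than in NC and 4 of 6 HFD mice lay above all NC mice, yet the log2 difference of 2.27 missed the threshold (SE 0.80, limma adjusted p = 0.0590). The differences of SZ-A from HFD (-0.92, 95% interval -3.27 to 1.43) and from NC (1.35, 95% interval -1.02 to 3.71) did not pass either.

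Inside a mouse, the gap between the hepcidin genes was narrower on the high-fat diet. Hamp had 732.8 or more FPKM for each FPKM of Hamp2 in every NC mouse, and 78.33 to 677.3 in HFD mice, so these groups did not overlap. The mean log2 ratio of Hamp2 to Hamp was 3.72 higher in HFD than in NC, 13.2-fold on the linear scale (exact permutation test, two-sided p = 0.002165, the smallest that 6 against 6 mice can give, adjusted p = 0.0130 over 12 ratio comparisons). In SZ-A against NC the ratio was 3.49 higher, with an exact two-sided p of 0.0303 and an adjusted p of 0.0606 that did not pass. SZ-A and HFD differed by -0.23 (SE 1.38, exact permutation p = 0.862). SZ-A mouse 4 had both the lowest Hamp and the highest Hamp2 of its group.

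Over the 18 mice, centred on group means, the gene most like Hamp2 was Alb (albumin, the main plasma protein and one of the hepatocyte markers) with Pearson r = 0.83, followed by Ropn1l and Ppp1r7, both at 0.81. For Hamp the most alike were D16Ertd472e at 0.85, Coq3 at 0.81 and Slc35b3 at 0.79. These are the highest values among 10216 genes and carry no test.

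**Figure D2:**
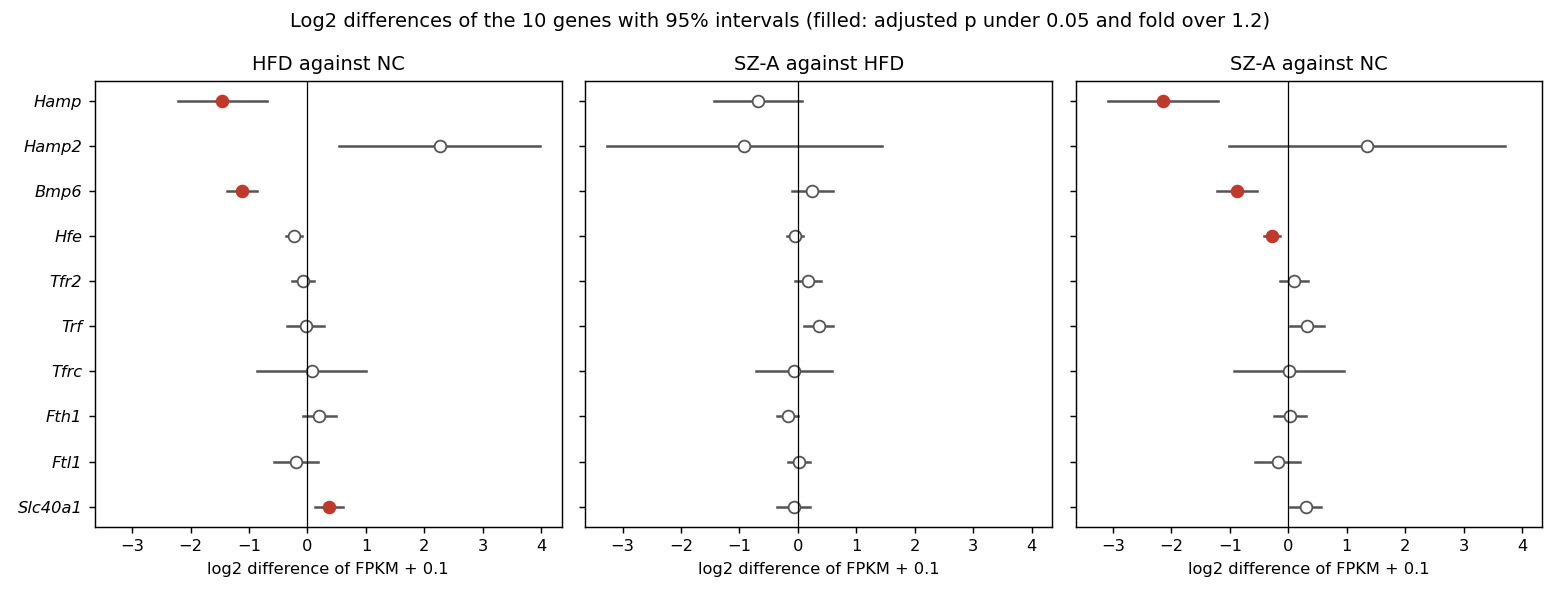
Log2 differences of FPKM + 0.1 for the 10 genes in the 3 comparisons, with 95% intervals across the 12 mice of each; filled points passed adjusted p under 0.05 and a fold over 1.2. Hamp and Bmp6 are filled and negative against NC in both HFD (-1.46 and -1.12) and SZ-A (-2.14 and -0.87), and no point is filled in SZ-A against HFD.

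Bmp6 (ENSMUSG00000039004, chr13:38345107-38500302, plus strand), the iron-regulated ligand upstream of Hamp, had the smallest adjusted p of the 10 genes in both comparisons with NC. NC mice had 3.50 to 5.03 FPKM (median 4.83), HFD mice 1.62 to 2.46 (median 2.003) and SZ-A mice 1.57 to 3.04 (median 2.72), on 107 to 352 fragments per mouse. Neither high-fat group overlapped NC. The log2 difference was -1.12 in HFD (SE 0.12, limma adjusted p = 8.95e-05) and -0.87 in SZ-A (SE 0.16, limma adjusted p = 0.00585). SZ-A was 0.25 above HFD (95% interval -0.11 to 0.60, limma adjusted p = 0.513), with 4 of 6 SZ-A mice above every HFD mouse and 1 below. In bulk tissue, fewer cells of a type and less RNA per cell cannot be told apart. The 8 sinusoidal endothelial markers summed to 69.2 to 87.8 FPKM in NC mice. The sums were 77.6 to 91.3 in HFD mice and 79.7 to 89.4 in SZ-A mice. In HFD against NC 1 of the 8, Lyve1 (0.91), was called higher, beside 10.7% of all genes. None was called lower, beside 9.49%. Stab2 (0.19), Fcgr2b (0.14), Oit3 (0.04), Clec4g (0.03), Stab1 (0.02), Kdr (-0.08) and Dnase1l3 (-0.12) were not called. In SZ-A against NC none was called, beside 9.60% of all genes. The part of the 8 markers in the Bmp6 difference was not tested.

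Hfe (ENSMUSG00000006611, chr13:23702034-23710854, minus strand), the gene mutated in hereditary hemochromatosis, was the least variable of the 10 in NC, with a coefficient of variation of 3.12%. Its levels in NC mice were 17.17 to 18.80 FPKM (median 17.97), those in HFD mice 13.92 to 16.32 (median 15.50) and those in SZ-A mice 13.22 to 15.86 (median 14.83), and neither high-fat group overlapped NC. In SZ-A against NC the log2 difference of -0.28 was called (SE 0.06, limma adjusted p = 0.0119). In HFD against NC the difference of -0.23 had an adjusted p of 0.0184 in limma but a fold under 1.2. Scaling every mouse to 1 common sum of FPKM moved the median of all genes from -0.03 to 0.15 in HFD against NC. The HFD difference of Hfe was then -0.04 (limma adjusted p = 0.768). With voom on library totals it was -0.08 (limma adjusted p = 0.489). With median-ratio scaling, of FPKM or in voom, its limma adjusted p stayed under 0.05, so the difference depended on the scaling chosen. At the common sum, the median of all genes in SZ-A against NC moved from -0.0063 to 0.0078. The SZ-A difference of Hfe was then -0.27 (limma adjusted p = 0.0521) and was not called. Hfe was called in SZ-A against NC under 23 of 26 alternatives.

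Tfr2 (ENSMUSG00000029716, chr5:137569840-137587481, plus strand), the hepatocyte receptor that senses transferrin, stayed between 93.35 and 135.8 FPKM in all 18 mice. Its means were 109.2 ± 12.4 FPKM in NC mice, 103.3 ± 9.08 in HFD mice and 117.0 ± 16.96 in SZ-A (SD, n = 6 each). The log2 differences were -0.08 in HFD against NC, 0.17 in SZ-A against HFD and 0.09 in SZ-A against NC, and none passed. The 95% interval of the first, -0.27 to 0.12, holds no change as large as that of Bmp6.

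Trf (ENSMUSG00000032554, chr9:103204001-103230444, minus strand) encodes transferrin, the plasma carrier of iron. NC livers had 146.5 to 250.1 FPKM (median 181.8), HFD livers 136.9 to 205.1 (median 190.3) and SZ-A livers 185.2 to 260.1 (median 234.3). Of the SZ-A mice, 5 of 6 lay above every HFD mouse. The log2 difference of SZ-A from HFD was 0.35 (SE 0.12, 95% interval 0.10 to 0.61), with an unadjusted p of 0.00996 and an adjusted p of 0.191 in limma, so it did not pass over all genes. HFD against NC gave -0.03 (limma adjusted p = 0.912), and SZ-A against NC gave 0.32 (limma adjusted p = 0.149), which became 0.41 (limma adjusted p = 0.0386) without NC mouse 5.

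Tfrc (ENSMUSG00000022797, chr16:32608920-32632794, plus strand), the transferrin receptor by which most cells take up iron and the carrier of the 3′ stem-loops above, varied more between mice than between groups. NC mouse 1 had 12.4 FPKM and the other NC mice 1.502 to 5.23 FPKM, while HFD mice spanned 2.16 to 6.19 and SZ-A mice 1.84 to 5.47. The log2 differences were 0.07, -0.07 and 0.00 in HFD against NC, SZ-A against HFD and SZ-A against NC, with 95% intervals that reached -0.93 and 1.01. The interval of SZ-A against HFD was narrower, at -0.72 to 0.59. Differences inside these intervals were not excluded by these mice. The ratio of Tfr2 to Tfrc within a mouse passed in no comparison (exact permutation tests, lowest p = 0.556).

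Fth1 (ENSMUSG00000024661, chr19:9982703-9985092 in the deposited table, plus strand) and Ftl1 (ENSMUSG00000050708, chr7:45457944-45459884, minus strand) encode the heavy and light chains of ferritin, the iron store, of which the heavy chain oxidizes iron. For Fth1 the NC mice ran from 1257 to 2223 FPKM (median 1459), the HFD mice from 1630 to 2101 (median 1753) and the SZ-A mice from 1420 to 1728 (median 1560). For Ftl1 the ranges were 930.0 to 2278 FPKM (median 1212), 1035 to 1236 (median 1101) and 1052 to 1416 (median 1082), in the same order. NC mouse 5 was the highest NC mouse for both chains. In HFD against NC the log2 differences were 0.21 for Fth1 (SE 0.13, limma adjusted p = 0.278) and -0.20 for Ftl1 (SE 0.17, limma adjusted p = 0.444). In SZ-A against HFD they were -0.18 (limma adjusted p = 0.354) and 0.02 (limma adjusted p = 0.943). Without NC mouse 5, Fth1 was called higher in HFD than in NC, at 0.31 (limma adjusted p = 0.0298).

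The ratio of both chains separated HFD from NC where neither level did. The ratio of Fth1 to Ftl1 within a mouse spanned 0.976 to 1.35 in the NC group, 1.45 to 1.71 in the HFD group and 1.22 to 1.62 in the SZ-A group, so NC and HFD did not overlap. The mean log2 ratio was 0.40 higher in HFD than in NC (SE 0.08, exact permutation test, two-sided p = 0.002165, adjusted p = 0.0130), or 1.32-fold. In SZ-A it was 0.20 lower than in HFD (SE 0.07, exact permutation p = 0.0238, adjusted p = 0.0571) and 0.21 higher than in NC (exact permutation p = 0.0476, adjusted p = 0.0816), and neither passed. Fragments of ferritin genes can be shared with near-identical copies. The most abundant listed copy, Ftl1-ps1, had group means of 30.1, 23.2 and 23.3 FPKM in NC, HFD and SZ-A, and the other 4 copies stayed at 1.42 FPKM or lower in every mouse.

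**Figure D3:**
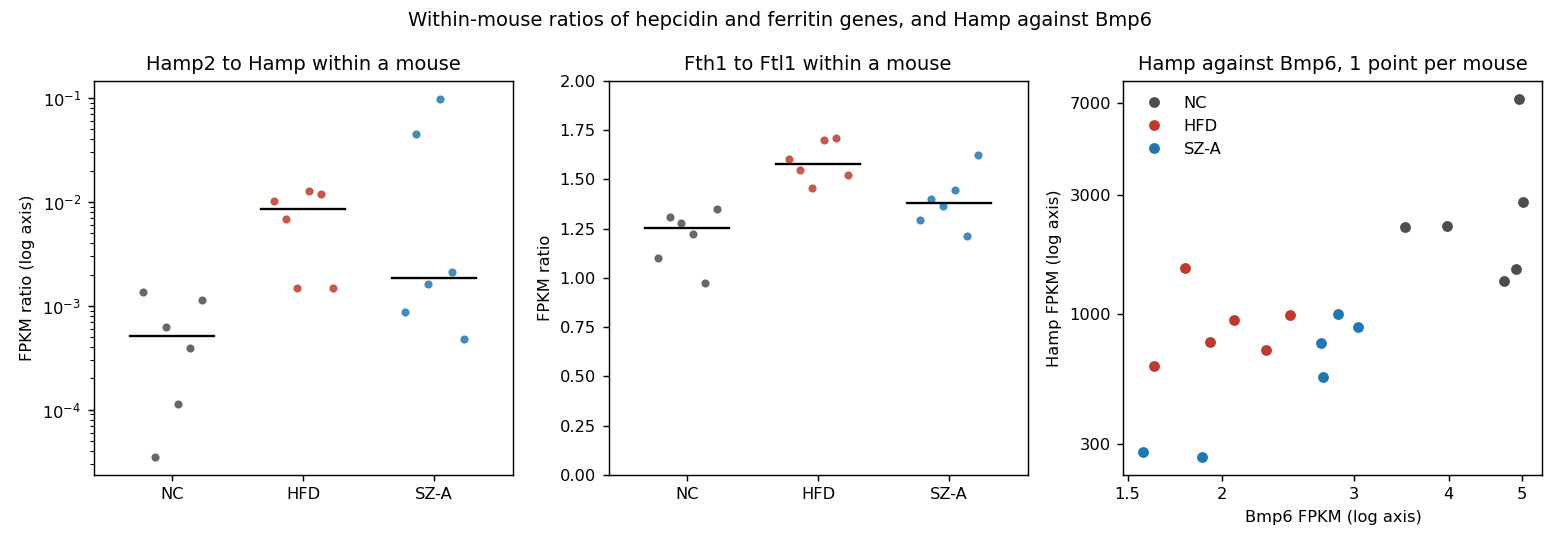
Left, FPKM of Hamp2 divided by Hamp in each mouse (log axis); centre, Fth1 divided by Ftl1 (axis from 0); right, Hamp against Bmp6 with both axes logarithmic. Points are mice and lines are group medians; NC and HFD do not overlap in either ratio, and the 6 NC mice lie apart from the other 12 in Bmp6.

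Slc40a1 (ENSMUSG00000025993, chr1:45908068-45926523, minus strand), the gene of ferroportin, was the only one of the 10 called higher in HFD. NC mice had 12.2 to 16.0 FPKM (median 14.2), HFD mice 14.6 to 21.6 (median 18.6) and SZ-A mice 13.3 to 22.5 (median 17.1). In HFD 5 of 6 mice lay above every NC mouse. The log2 difference was 0.37 in HFD against NC (SE 0.11, limma adjusted p = 0.0310), -0.07 in SZ-A against HFD (limma adjusted p = 0.848) and 0.30 in SZ-A against NC (SE 0.12, limma adjusted p = 0.144). The HFD call stood close to the threshold. It was lost without any one of NC mice 1, 4 and 5 and HFD mice 2, 3, 4 and 5 (log2 difference 0.32 to 0.38, limma adjusted p 0.0501 to 0.0667). Kupffer cells are resident macrophages rich in ferroportin. Their 8 markers summed to 124 to 232 FPKM in NC mice, 177 to 354 in HFD mice and 198 to 272 in SZ-A mice, and 3 of the 8 (Cd5l, Adgre1 and C1qa) were called higher in HFD, beside 10.7% of all genes. Marco (1.27), Folr2 (0.56), Clec4f (0.30), Vsig4 (0.25) and Timd4 (0.01) were not called. The part of the 8 markers in the Slc40a1 difference was not tested.

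Other genes of the pathways were taken from 5 lists, 77 genes in all, of which 71 were tested. The lists were written with earlier results of these data known. The shares called and the list medians are therefore descriptions and not independent evidence for a pathway. In HFD against NC 17 of the 71 were called, 11 higher and 6 lower (23.9%, beside 20.2% of all genes), in SZ-A against HFD 0, and in SZ-A against NC 10, 7 higher and 3 lower (14.1%, beside 9.60%). With every mouse at 1 common sum, the HFD calls of the lists were 22 higher and 1 lower, so the smaller falls among them depend on the scaling. Erfe, Il6, Flvcr1, Heph, Steap2 and Ftmt were too low to test.

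Of the BMP-SMAD genes that control Hamp, 18 were tested, 3 were called lower in HFD and none higher (16.67%, beside 20.2% of all genes called and 9.49% called lower), and the list median was -0.05 beside -0.03 for all genes. Atoh8, a transcription factor that answers BMP signals, spanned 12.3 to 18.3 FPKM in NC mice. It fell to 4.67 to 13.1 in HFD mice (log2 difference -1.03, SE 0.21, limma adjusted p = 0.00376) and 5.22 to 9.79 in SZ-A mice (-1.15 against NC, SE 0.16, limma adjusted p = 0.00153). In SZ-A against NC 3 were called, all lower (16.67%, beside 9.60% of all genes called and 4.30% called lower). The count was 5 (1 higher and 4 lower) without NC mouse 5, where the calls over all genes went from 981 to 1151. Bmp2, the endothelial partner of Bmp6, fell by 0.38 in HFD (limma adjusted p = 0.00878) and 0.32 in SZ-A (limma adjusted p = 0.0261), with no overlap with NC in either group. Furin, a protease that processes pro-hepcidin and hemojuvelin, fell by 0.35 in HFD (limma adjusted p = 0.0101). Scaled to 1 common sum, Bmp2 and Furin kept their sign in HFD (-0.19 and -0.15) but were no longer called, while Atoh8 was. At that setting Fgl1 (0.94, limma adjusted p = 0.0482) and Smad5 (0.31, limma adjusted p = 0.0141), named after their values were seen, were called higher. The list median was then 0.14, beside 0.15 for all genes. With voom on library totals 2 of the list were also called higher and 1 lower. The SZ-A call of Bmp2 was also lost at 1 common sum (-0.30, limma adjusted p = 0.0890) and with voom on library totals (-0.28, limma adjusted p = 0.0751). Id1, a SMAD target, had means of 10.6, 8.60 and 7.03 FPKM in NC, HFD and SZ-A. It was called lower in SZ-A against NC (-0.61, limma adjusted p = 0.0258) and not in HFD against NC (-0.31, limma adjusted p = 0.0867). The ratio of Hamp to Id1 was 1.15 lower on the log2 scale in HFD than in NC (exact permutation p = 0.0195, adjusted p = 0.0571) and did not pass.

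Tmprss6 encodes the protease that cleaves hemojuvelin, and Hfe2 encodes hemojuvelin. Both were given after their values were seen, because they act in the BMP-SMAD pathway that controls Hamp. Tmprss6 had means of 151.2, 162.6 and 158.2 FPKM and Hfe2 of 41.7, 43.1 and 46.8 FPKM in NC, HFD and SZ-A, and neither was called in any comparison.

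Of the STAT3 and acute-phase list 11 genes were tested. In HFD against NC 4 were called higher and 1 lower (45.45%, beside 20.2% of all genes called and 10.7% called higher). The list median was 0.28 beside -0.03 for all genes. Il6st (0.30), Jak2 (0.28), Il1b (0.23), Stat3 (0.23), Jak1 (0.06) and Il6ra (-0.16) were not called. The part of this list in the Hamp difference was not tested. Lcn2, lipocalin 2, which binds iron-loaded siderophores, ran from 0.685 to 5.92 FPKM in NC and from 15.6 to 167.7 in HFD (log2 difference 4.34, SE 0.56, limma adjusted p = 0.000254). Saa1, a serum amyloid A gene, ran from 3.21 to 35.8 FPKM in NC and 58.5 to 1051 in HFD (3.64, SE 0.74, limma adjusted p = 0.00435), and its similar neighbour Saa2 gave 3.88 (limma adjusted p = 0.00460). Socs3, a feedback inhibitor induced by STAT3, had means of 2.32, 4.47 and 5.69 FPKM in NC, HFD and SZ-A and rose by 0.87 in HFD and 1.11 in SZ-A against NC (limma adjusted p = 0.0136 and 0.0378). The gene called lower, Creb3l3, lies outside the naming rule and was named after its values were seen. It encodes a hepatocyte transcription factor linked to Hamp and acute-phase genes, and it fell by 0.29 in HFD (limma adjusted p = 0.0396), a call lost without NC mouse 5 or 6. In SZ-A against NC, Socs3 and Lcn2 (3.22, limma adjusted p = 0.0172) were the 2 called (18.18%, beside 9.60% of all genes). The call of Socs3 was lost without NC mouse 5 (limma adjusted p = 0.0510) or NC mouse 6 (limma adjusted p = 0.0678).

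The heme and iron transport list had 6 of 17 genes called higher and none lower in HFD (35.29%, beside 20.2% of all genes), with a median of 0.27 beside -0.03. Hmox1, heme oxygenase 1, which frees iron from heme, spanned 9.87 to 13.1 FPKM in NC mice, 19.6 to 29.4 in HFD mice and 14.0 to 48.5 in SZ-A mice, and neither high-fat group overlapped NC (log2 differences 1.03 and 0.87, SE 0.11 and 0.24, limma adjusted p = 8.00e-05 and 0.0412). The SZ-A call of Hmox1 was lost without NC mouse 5 (0.81, limma adjusted p = 0.0632) or NC mouse 6 (0.89, limma adjusted p = 0.0557), and with the replicate number as a block (limma adjusted p = 0.0680). Steap4, a metalloreductase, spanned 11.6 to 24.3 FPKM in NC mice, 48.1 to 170.1 in HFD mice and 40.0 to 136.7 in SZ-A mice (2.17 and 1.64 against NC, limma adjusted p = 0.000337 and 0.00340). Blvra, biliverdin reductase A, which follows heme oxygenase, rose by 0.37 in HFD (limma adjusted p = 0.0154), and Lrp1, a receptor that also takes up heme bound to hemopexin, by 0.51 (limma adjusted p = 0.0338). The remaining 2, named after their values were seen, were Hpx (hemopexin, 0.49, limma adjusted p = 0.0490) and the iron importer Slc11a2 (0.35, limma adjusted p = 0.0396), and both calls were lost without NC mouse 5 or NC mouse 6. Slc39a14, an importer of non-transferrin iron and also outside the rule, was the third of 17 genes called in SZ-A against NC (0.39, limma adjusted p = 0.0395). That call was lost at 1 common sum (limma adjusted p = 0.0661) and with the block (limma adjusted p = 0.0664). The 3 made up 17.65% of the tested list, beside 9.60% of all genes. Cd163, the macrophage receptor for hemoglobin bound to haptoglobin, was not called (-0.81 in HFD, limma adjusted p = 0.149).

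**Figure D4:**
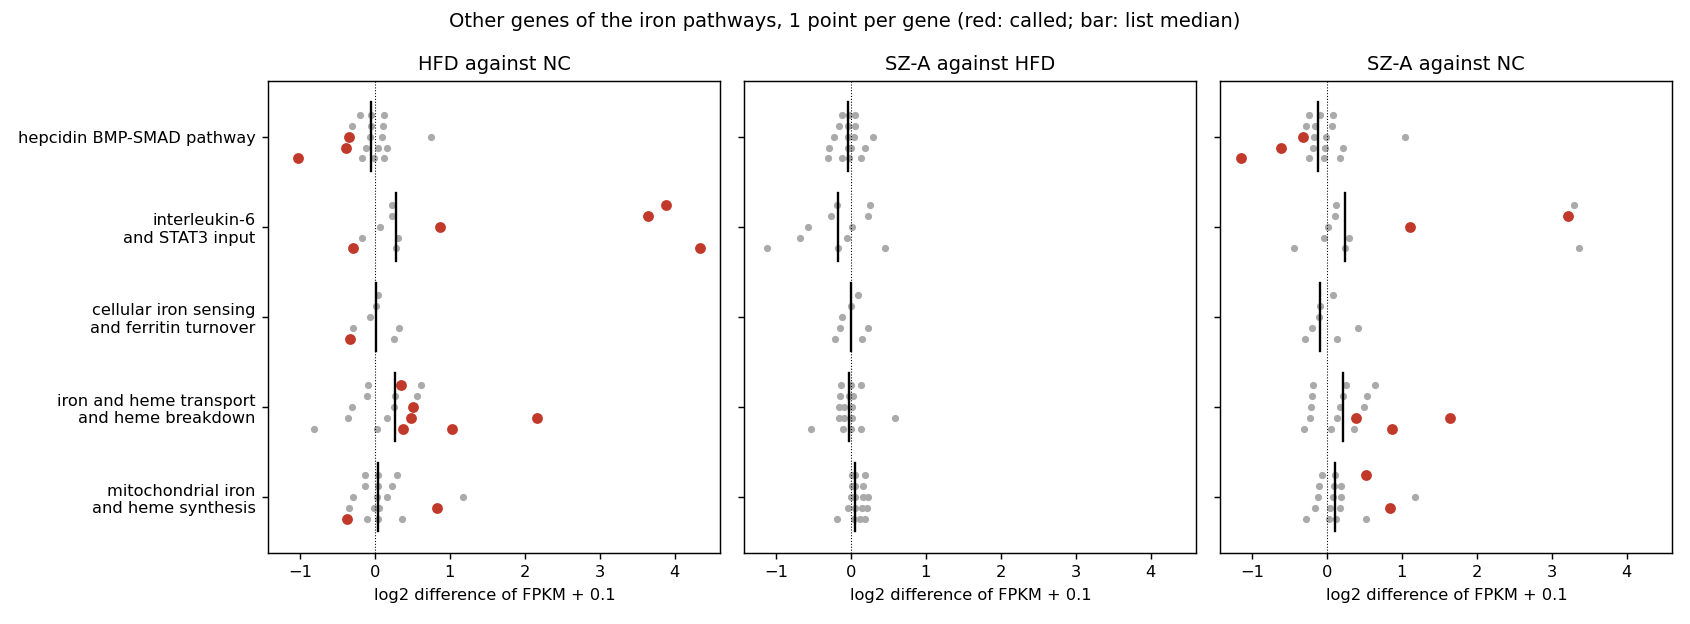
Log2 differences of FPKM + 0.1 for the 71 tested pathway genes in 5 lists, 1 point per gene, in the 3 comparisons; red points passed the test and bars are list medians. In HFD against NC 11 red points lie above 0 and 6 below, and in SZ-A against HFD there are none.

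Of 7 tested genes of iron sensing inside the cell, 1 was called in HFD (14.29%, beside 20.2% of all genes). It was Pcbp2, an iron chaperone that loads ferritin (-0.33, limma adjusted p = 0.0257). None was called in SZ-A against NC, beside 9.60% of all genes. Without NC mouse 6 the HFD count was 2. At 1 common sum Pcbp2 was at -0.13 and not called. Aco1, iron regulatory protein 1, gave 0.33 in HFD with a limma adjusted p of 0.0509, and was called at 1 common sum (0.52, limma adjusted p = 0.0161). Fbxl5, named after its values were seen, gave 0.25 in HFD (limma adjusted p = 0.0499) with a fold under 1.2. At 1 common sum Fbxl5 was called as well (0.44, limma adjusted p = 0.0132). With voom on median-ratio library sizes, 2 of the list were called higher and 1 lower.

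Of the mitochondrial iron and heme synthesis genes, 18 were tested and 2 were called in HFD (11.11%, beside 20.2% of all genes). At 1 common sum and with voom on library totals, 5 were called higher and 0 lower. Of all 10216 genes, 2100 and 2010 were called higher under these 2 settings. Slc25a37, mitoferrin 1, which imports iron into mitochondria, ran from 2.67 to 4.05 FPKM in NC and 5.15 to 7.07 in HFD with no overlap (log2 difference 0.82, SE 0.11, limma adjusted p = 0.000443), and it was also higher in SZ-A than in NC (0.84, limma adjusted p = 0.0105). Lyrm4, which serves iron-sulfur cluster assembly, was lower in HFD (-0.37, limma adjusted p = 0.0392), a call lost without NC mouse 5 and at 1 common sum. Alad, the second enzyme of heme synthesis, was called higher in SZ-A against NC (0.52, limma adjusted p = 0.0309). Alas1, the first and rate-limiting enzyme, had means of 85.4, 187.3 and 177.1 FPKM in NC, HFD and SZ-A. Its difference of 1.18 in HFD did not pass (limma adjusted p = 0.0693). It was called without NC mouse 5 (1.47, limma adjusted p = 0.0155) and at 1 common sum (1.37, limma adjusted p = 0.0231). With sample weights and with voom on library totals it was called as well. Abcb10, a mitochondrial transporter of the heme pathway, gave 0.30 in HFD (limma adjusted p = 0.299).

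Within groups, Hamp was set against 8 genes over the 18 mice, each centred on its group mean. The highest correlation was with Bmp6, at Pearson r = 0.54 (permutation p = 0.0447, adjusted p = 0.358 over the 8) and Spearman rho = 0.56 (permutation p = 0.0275, adjusted p = 0.220), and r was 0.45 without the 2 mice farthest in Bmp6. By group r was 0.18 for NC, 0.07 for HFD and 0.94 for SZ-A, whose mice 4 and 5 were lowest in both genes. The other 7 genes (Hamp2, Id1, Smad6, Smad7, Saa1, Socs3 and Tfr2) gave r between -0.10 and 0.30, and 0 of the 8 relations passed after adjustment.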

How the data were processed

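Liver RNA from 18 mice, 6 per group by their titles, was measured by RNA-seq. The deposited values were FPKM per gene, made by the authors after alignment to mm10 with HISAT2 2.0.5, with featureCounts 1.5.0-p3 in the submitters' processing notes. Low values were whole multiples of 1 fragment (100.0% of values within 0.05), which gave the depth and a library-size factor of 0.9325 to 1.1414 per mouse. Genes with a mean of at least 1 FPKM (10216 of 54532) were tested on log2(FPKM + 0.1) with limma 3.58.1 in R 4.3.3 on the 12 mice of each comparison, so fold changes are on that scale. P-values were adjusted by Benjamini-Hochberg over all genes. The study's count test was not used because the deposited unit was FPKM. Within-mouse ratios were tested by exact permutation and correlations with 100000 permutations within groups. The procedures were tested on simulated data. Titles give separate mice, and same-numbered mice of different groups did not deviate together (correlations -0.12 to 0.29), so the numbers were not used as pairs. No library was a duplicate of another (lowest chi-square per degree of freedom 18.6 within groups). Promoter windows came from RefSeq GRCm38.p6. Alternatives covered scaling, filter, pseudocount, variance model and each mouse left out.

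The 10 genes, the lists and the tests were chosen with earlier results of these data known. Named genes were the 10, the 8 of the correlation, up to 4 called genes per list by adjusted p with the largest change in HFD against NC and in SZ-A against HFD, ferritin copies, and the 3 genes most like Hamp and Hamp2. Cell markers were 9 lists. Recruited macrophage markers summed to 17.9 to 60.5 FPKM, stellate 98.5 to 178.3, red cell 151.1 to 470.6, cholangiocyte 1.87 to 12.3, T cell 0.334 to 1.25 and B cell 0.0671 to 0.913.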

Additional observations from a re-analysis of the deposited data

Results flagged for a closer look

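Among 42 sets of 6 mice (10 genes and 4 ratios in 3 groups), 1 held a mouse set apart from the rest by Dixon's criterion for 6 values. Ftl1 was 1416 FPKM in SZ-A mouse 5, with a gap to the next mouse of 0.6527 of the group's range on the log2 scale, above the critical value. Chance alone flags about 1 set in 20. Without that mouse the SZ-A against HFD difference of Ftl1 was -0.04 in place of 0.02, and neither passed.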

How the results depend on the processing

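Hamp was called lower in HFD against NC under all alternatives tried (log2 difference -1.63 to -1.14, limma adjusted p 0.00269 to 0.0483) and in SZ-A against NC (-2.32 to -1.70). Bmp6 was called in both wherever it was tested (-1.19 to -0.86 and -0.94 to -0.68), and none of the 10 genes was called in SZ-A against HFD under any alternative. The 3 genes called in HFD against NC became 5 with a common sum per mouse or with sample weights, which added Hamp2 and Fth1, and 2 to 4 with 1 mouse left out. Without both NC mice 5 and 6 (chosen after the data were seen), Slc40a1 was at 0.36 (limma adjusted p = 0.0504). The 3 called in SZ-A against NC were 2 to 4 with 1 mouse left out. With the replicate number as a block, 2 were called in HFD against NC, since Slc40a1 (limma adjusted p = 0.0570) was lost, and the list calls went from 17 to 13. The 2 ratios that passed became 6 with a pseudocount of 1 and 2 to 6 with 1 mouse left out, 4 without NC mouse 6 or HFD mouse 5 and 6 without SZ-A mouse 6. The correlations stayed at 0 of 8 throughout.

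Calls over all genes in SZ-A against HFD went from 15 to 0 with no filter or with the block, 26 at a mean of at least 5 FPKM or with voom, 35 in 1 fit of all mice, 68 with voom on library totals, 216 (10 higher, 206 lower) at a common sum, 233 with sample weights, and 2 to 49 with 1 mouse left out. In HFD against NC they went from 2062 to 1271 at a mean of at least 5 FPKM, and at a common sum to 2434 (2100 higher, 334 lower, against 1092 and 970). In SZ-A against NC they went from 981 to 564 with no filter, 1682 with sample weights, and 601 and 629 without SZ-A mouse 3 or 6.

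Signs turned only for values that did not pass. Under a common sum, sample weights, voom on library totals and the removal of NC mice 5 and 6, Trf in HFD against NC was 0.1634, 0.0484, 0.1270 and 0.0144. Tfr2 was 0.1157 (common sum) and 0.0796 (voom on library totals) in HFD against NC, and -0.0066 (common sum) in SZ-A against HFD. Ftl1 in SZ-A against HFD was -0.1589, -0.0120 and -0.0937 under a common sum, sample weights and voom on library totals. Tfrc was 0.0207 with sample weights in SZ-A against HFD, -0.0272 with a pseudocount of 1 in SZ-A against NC, and -0.1675 and -0.2343 without NC mice 5 and 6 in HFD and SZ-A against NC. The ratio of Hamp2 to Hamp in SZ-A against HFD was 0.1660 with a pseudocount of 1. With 1 mouse left out, Trf in HFD against NC ran from -0.0932 to 0.0610, Fth1 in SZ-A against NC from -0.0315 to 0.1331, Ftl1 and Slc40a1 in SZ-A against HFD from -0.0441 to 0.0476 and from -0.1441 to 0.0061, Tfrc from -0.1613 to 0.4315, -0.2144 to 0.1116 and -0.2281 to 0.3647 in HFD against NC, SZ-A against HFD and SZ-A against NC, Hamp2 to Hamp in SZ-A against HFD from -1.1083 to 0.3741, and Tfr2 to Tfrc from -0.5495 to 0.1227 and from -0.3112 to 0.3610 in HFD and SZ-A against NC. The cause of these shifts was not tested.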
